A study of Homo sapiens with 6 samples.

Results

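The small nuclear RNA-activating complex (SNAPc) and the factors that start transcription with it were followed through 10 genes, picked by symbol out of the 62443 genes of the expression table: SNAPC1, SNAPC2, SNAPC3, SNAPC4 and SNAPC5 for the complex, BRF1, BRF2 and BDP1 for the RNA polymerase III factor TFIIIB, TBP for the TATA-binding protein, and POU2F1 for the octamer factor Oct-1. SNAPC1 had been singled out by its difference between the same samples, so every value of that difference is a description and carries no test, and the question put to the data was whether SNAPC1 changed alone. The samples were 6 RNA sequencing libraries of HGC-27, an established human gastric cancer cell line, and no other line was included. In 3 libraries, called Con, the labels give the treatment as none, while by the study's methods the negative control received the buffer in which the peptide was stored. The other 3 libraries were from cells given GLUP, a glue peptide closed by a disulfide bond and built from the part of the cofactor VGLL4 that binds the transcription factor TEAD4, designed to hold TEAD4 molecules together. The length of the treatment is stated differently in different places of the study and is left out here. The study's methods speak of biological replicates without saying what set them apart, and p-values measure the spread between these libraries.

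SNAPc is a complex of 5 subunits that recognises the proximal sequence element, the core promoter element of the genes for small nuclear RNAs (snRNAs). It serves both RNA polymerase II, at the genes of most spliceosomal snRNAs, and RNA polymerase III, at genes such as those of U6 and RN7SK. SNAPC4 is the largest subunit and holds Myb-like DNA-binding repeats, SNAPC1 and SNAPC3 assemble with it into the functional core, and SNAPC2 and SNAPC5 are accessory subunits. POU2F1 binds the octamer in the distal element of the same promoters and helps to bring SNAPc to them. At polymerase III promoters of the U6 kind, TFIIIB is made of BRF2, BDP1 and TBP, while BRF1 takes the place of BRF2 at the genes of transfer RNAs.

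The promoters of 3 subunits are shown because TEAD4, the target of the peptide, belongs to a family that binds the M-CAT core GGAATG, and because the core subunits SNAPC1 and SNAPC3 had the lowest fold changes of the 10 genes. The windows are RefSeq sequence of GRCh38.p14, from 250 bases before to 50 bases after an annotated start, 5′ to 3′ on the strand of the gene. GGAATG was searched for on both strands (CATTCC on the other), and a match is in capitals. The SNAPC1 window is chr14:61762170-61762469, the SNAPC3 window is chr9:15422626-15422925 and the SNAPC2 window, shown for its match, is chr19:7920765-7921064, all on the plus strand.
SNAPC1: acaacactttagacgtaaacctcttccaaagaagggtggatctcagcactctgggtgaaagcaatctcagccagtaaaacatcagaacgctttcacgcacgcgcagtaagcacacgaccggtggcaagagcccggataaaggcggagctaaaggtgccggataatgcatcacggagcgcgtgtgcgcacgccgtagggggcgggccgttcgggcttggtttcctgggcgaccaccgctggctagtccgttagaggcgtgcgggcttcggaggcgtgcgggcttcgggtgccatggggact
SNAPC3: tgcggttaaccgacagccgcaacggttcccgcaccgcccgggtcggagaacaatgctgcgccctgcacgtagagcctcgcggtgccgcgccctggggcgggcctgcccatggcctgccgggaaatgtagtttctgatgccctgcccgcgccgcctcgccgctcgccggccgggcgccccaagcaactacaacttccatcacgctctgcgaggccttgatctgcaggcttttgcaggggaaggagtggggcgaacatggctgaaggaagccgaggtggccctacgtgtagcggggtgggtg
SNAPC2: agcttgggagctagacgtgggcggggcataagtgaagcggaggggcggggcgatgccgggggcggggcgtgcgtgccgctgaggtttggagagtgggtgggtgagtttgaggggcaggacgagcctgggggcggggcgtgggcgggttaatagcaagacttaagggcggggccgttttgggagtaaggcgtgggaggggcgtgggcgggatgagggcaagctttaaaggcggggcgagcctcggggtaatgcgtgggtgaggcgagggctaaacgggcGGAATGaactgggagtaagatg

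The letters GGAATG were in neither strand of the SNAPC1 or the SNAPC3 window. Of the 2 SNAPC2 windows, the one shown held them 29 bases after the start and the other, at a different annotated start, did not hold them. Over the 8 factor genes with an entry used, 2 of 15 windows had a match, in SNAPC2 and BRF1, beside 14.0% of all 35116 windows of this length. Chromosome 8, where BRF2 lies, was left out for the factor genes but not for all windows, and SNAPC4 had no entry. A match is a run of letters and does not show binding, and its absence says only that these letters are not in the window.

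SNAPC1 was lower in GLUP. The SNAPC1 gene (ENSG00000023608, chromosome 14, 62229138 to 62263146, plus strand, GRCh37) had 14.8, 13.2 and 10.2 FPKM in Con 1, 2 and 3, and 3.53, 3.48 and 4.20 FPKM in GLUP 1, 2 and 3, where FPKM is the number of fragments scaled to the length of the transcript and to the mapped fragments of the library. Every GLUP library was below every Con library. The group means were 12.7 ± 2.30 FPKM in Con and 3.74 ± 0.402 FPKM in GLUP (SD, n = 3 each), so that the Con mean was 3.41 times the GLUP mean. Taken as log2(FPKM + 1), a scale that shrinks the change of genes near or below 1 FPKM, GLUP minus Con was -1.52 (SE 0.27). The groups did not overlap in 30.3% of the 7406 genes tested, which averaged 1 FPKM or more over the 6 libraries, with GLUP lower in 22.7% and higher in 7.55%, and since SNAPC1 was selected on this comparison its lack of overlap adds nothing to those shares.

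SNAPC1 stood far from the centre of the table. The median fold change of the 7406 genes was -0.23 on the log2 scale and 65.5% of them were lower in GLUP. SNAPC1 ranked 67 from the bottom, with 0.905% of genes at or below its fold change, and relative to the median gene its difference was -1.29. When libraries were rescaled by the trimmed mean of log ratios, the median of all genes came to -0.0080 and 50.6% of genes were lower, with SNAPC1 at -1.26.

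**Figure D1:**
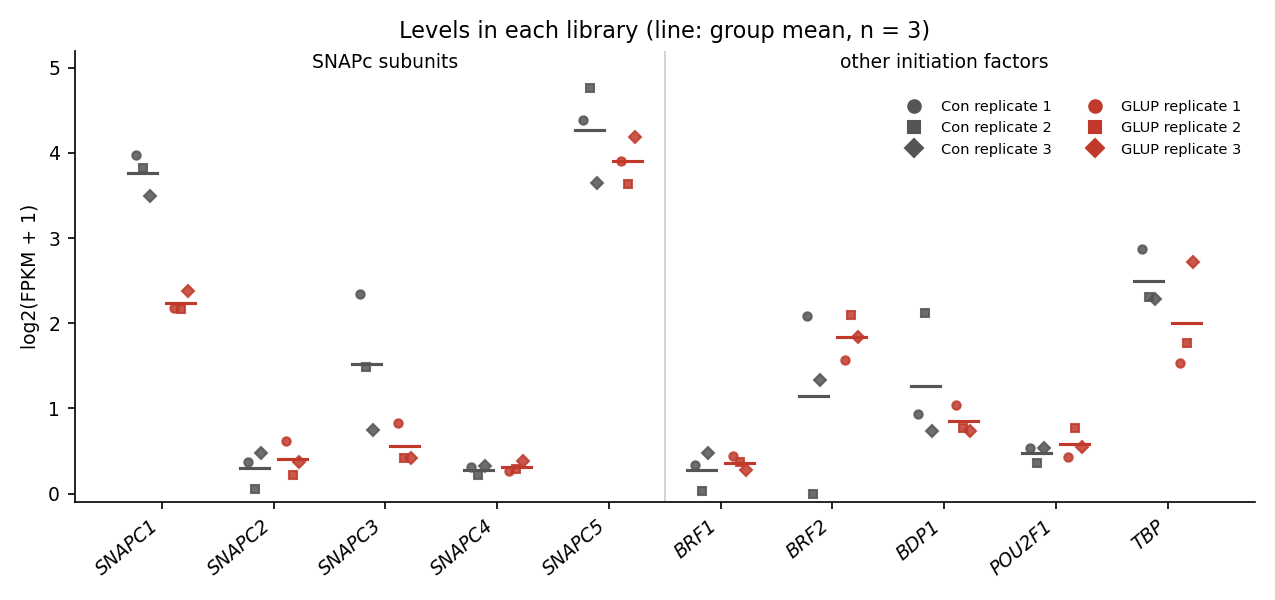
Level of each of the 10 factor genes in each library on log2(FPKM + 1), with Con in grey, GLUP in red, a marker shape for each replicate number and a line at each group mean (n = 3). SNAPC1 is the 1 gene whose Con points (10.2 to 14.8 FPKM) all lie above its GLUP points (3.48 to 4.20 FPKM), while the groups of the other 9 genes overlap.

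SNAPC1 was the 1 factor gene of 10 whose groups did not overlap, beside 30.3% of all tested genes, and as the gene selected on this comparison it says nothing about the others. The other 9 genes divided into 4 with a lower mean in GLUP (SNAPC3, SNAPC5, BDP1 and TBP) and 5 with a higher one on the log2(FPKM + 1) scale, with fold changes from -0.97 (SNAPC3) to 0.70 (BRF2) and a median of 0.03. That median includes 4 genes under 1 FPKM, whose differences the added 1 FPKM shrinks to between 0.03 and 0.11. Over all 31444 genes above 0 the median was -0.0090 and 55.0% were lower, but only 7406 of those averaged 1 FPKM or more, so the mix differs. The factor genes over that level were SNAPC3 at -0.97, TBP at -0.48, BDP1 at -0.41, SNAPC5 at -0.36 and BRF2 at 0.70. The 7406 genes had a median of -0.23, with 65.5% lower. None of the 9 passed an adjusted p of 0.05 (limma, two-sided, Benjamini-Hochberg, adjusted p from 0.198 to 0.890), and neither did any gene of the table, where the share called was 0% and the smallest adjusted p was 0.0806. The minimum of 1 FPKM was met by 6 of the 10 (SNAPC1, SNAPC3, SNAPC5, BRF2, BDP1 and TBP), and SNAPC3 and BDP1 reached it only through the Con libraries. SNAPC2, SNAPC4, BRF1 and POU2F1 were below it, and their values come from the same fit without a minimum, over 31444 genes. A p above the threshold does not show that these genes were the same in both groups, and the intervals below give the sizes that remain possible.

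**Figure D2:**
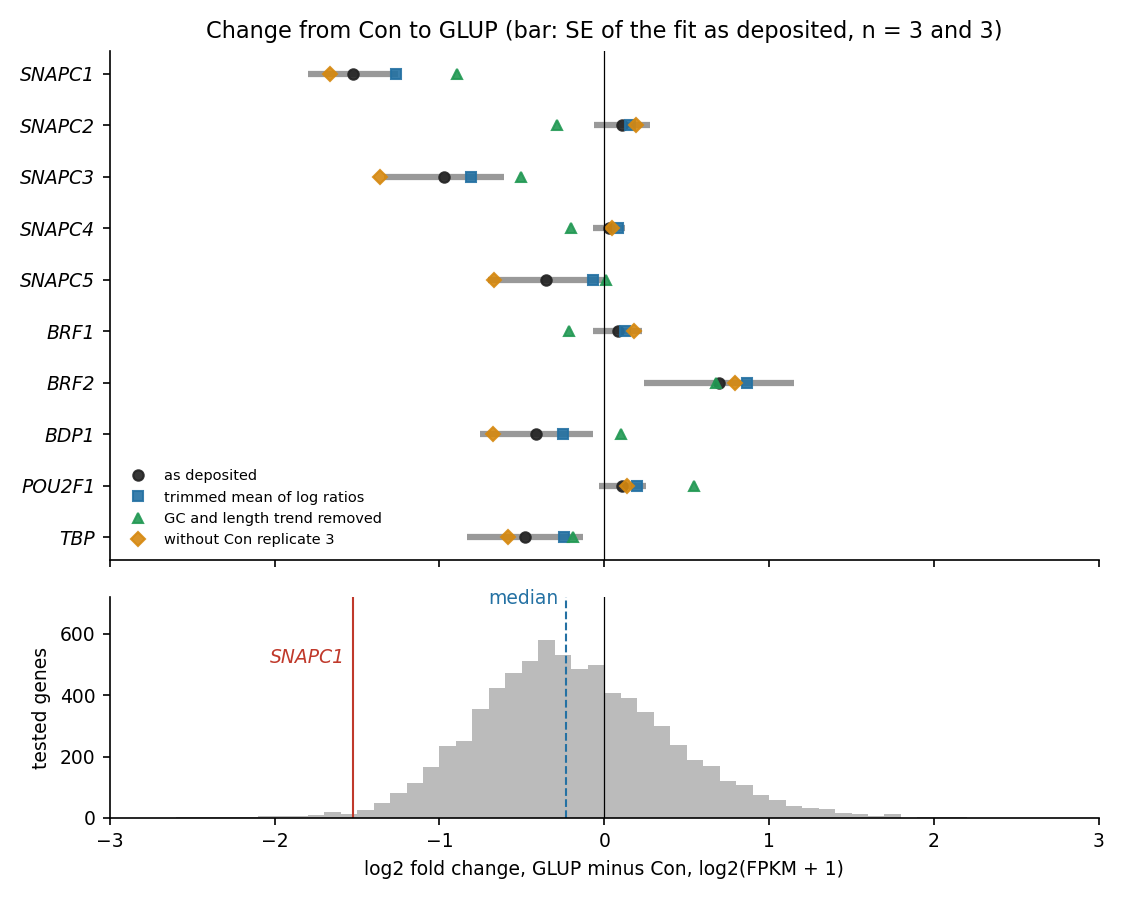
Upper panel: log2 fold change of the 10 factor genes (GLUP minus Con on log2(FPKM + 1)) as deposited (black, with a grey bar of 1 SE to each side), after rescaling, after removal of the trend in GC content and length, and without Con 3. Lower panel: number of tested genes by log2 fold change, with the median of -0.23 as a dashed line and SNAPC1 at -1.52 as a red line, where SNAPC1 is the lowest of the 10 as deposited.

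SNAPC3, the other core partner of SNAPC4, came closest to SNAPC1. SNAPC3 had 4.08, 1.80 and 0.676 FPKM in Con 1, 2 and 3 and 0.773, 0.334 and 0.340 FPKM in GLUP 1, 2 and 3. Con 1 and Con 2 were above all GLUP libraries, and Con 3 lay inside the GLUP range. The mean was 2.19 ± 1.74 FPKM in Con and 0.482 ± 0.252 FPKM in GLUP (SD, n = 3 each), a ratio of 4.53 that is larger than that of SNAPC1 and has a far larger spread. On the log2(FPKM + 1) scale the difference was -0.97 (SE 0.36, 95% interval -1.78 to -0.16, limma unadjusted p = 0.0233, adjusted p = 0.198). The choice of pseudocount decides whether the fold change of SNAPC3 looks smaller than that of SNAPC1: with 0.1 FPKM added in place of 1, SNAPC3 was at -1.74 (limma adjusted p = 0.200) and SNAPC1 at -1.73.

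The test of SNAPC3 depended on which libraries and genes were fitted. SNAPC3 met the minimum of 1 FPKM only through the Con libraries where it was high, and with no minimum its unadjusted p was 0.0521 and its adjusted p 0.589 (limma). Without Con 3 the difference was -1.36 with a limma adjusted p of 0.0327 among the genes over the minimum, where 18.5% of all genes were called (1204 lower and 163 higher), and 0.173 with no minimum, where 0 of 31444 genes were called and 4962 had an unadjusted p under 0.05. Without Con 1 it was -0.56 (limma adjusted p = 0.376). SNAPC3 shares 71 exonic bases with PSIP1 on the opposite strand (mean 3.72 FPKM), and whether fragments were counted by strand is not given in the sources used here.

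SNAPC5, an accessory subunit, was the most abundant of the 10 genes and overlapped between groups. Its values were 20.0, 26.1 and 11.5 FPKM in Con 1, 2 and 3 and 13.9, 11.5 and 17.2 FPKM in GLUP 1, 2 and 3. Con 3 was as low as the lowest GLUP library. The difference of -0.36 on log2(FPKM + 1) (SE 0.35, limma adjusted p = 0.527) had a 95% interval of -1.14 to 0.43, which allows either direction. It was -0.67 without Con 3, -0.11 without Con 2 and -0.07 after rescaling by the trimmed mean of log ratios, with limma adjusted p-values of 0.127, 0.853 and 0.901. SNAPC5 shares exonic bases with MAP2K1 on the opposite strand and with an unnamed gene on its own strand, at mean levels of 0.597 and 0.404 FPKM.

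SNAPC4 and SNAPC2 were barely detected. SNAPC4, the DNA-binding subunit, had 0.241, 0.160 and 0.248 FPKM in Con and 0.199, 0.220 and 0.304 FPKM in GLUP (replicates 1, 2 and 3), a difference of 0.03 on log2(FPKM + 1) (limma adjusted p = 0.890). SNAPC2, the other accessory subunit, had 0.290, 0.0357 and 0.385 FPKM in Con and 0.530, 0.162 and 0.297 FPKM in GLUP, a difference of 0.11 (limma adjusted p = 0.750). The groups overlapped for both genes, and at these levels with a pseudocount of 1 even a large relative change would give a small fold change.

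Set against the mean of SNAPC2 to SNAPC5 of the same library, and against SNAPC5, SNAPC1 was still lower in GLUP. That is a description because SNAPC1 was chosen by its fall. Against SNAPC3 alone, SNAPC1 was not lower by the plain FPKM means. The Con mean was 4.53 times the GLUP mean for SNAPC3 and 3.41 times for SNAPC1. The log2(FPKM + 1) of SNAPC1 minus the mean of SNAPC2 to SNAPC5 was 2.13, 2.20 and 2.20 in Con 1, 2 and 3 and 0.78, 1.02 and 1.04 in GLUP 1, 2 and 3. The Con libraries differed by less than 0.1 on this measure, although both SNAPC1 and SNAPC5 were lowest in Con 3 among the Con libraries, and the group means were -1.23 apart. SNAPC2 and SNAPC4 did not pass 0.530 and 0.304 FPKM, so the added 1 FPKM holds them near 0. They can hardly follow a change in that mean, so the narrow Con range does not show a steady proportion of subunits. Against SNAPC5, the 1 subunit above 10 FPKM in every library, SNAPC1 minus SNAPC5 was -0.41, -0.93 and -0.15 in Con and -1.72, -1.48 and -1.80 in GLUP. As a plain ratio of FPKM, SNAPC1 was 0.740, 0.505 and 0.891 times SNAPC5 in Con and 0.253, 0.303 and 0.245 times SNAPC5 in GLUP. SNAPC1 made up 31.9% to 44.4% of the summed FPKM of the 5 subunits in Con and 18.6% to 22.2% in GLUP, and SNAPC5 made up 49.9% to 63.2% and 73.2% to 77.0%. For SNAPC3 minus SNAPC5 the groups overlapped, with means -0.62 apart.

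**Figure D3:**
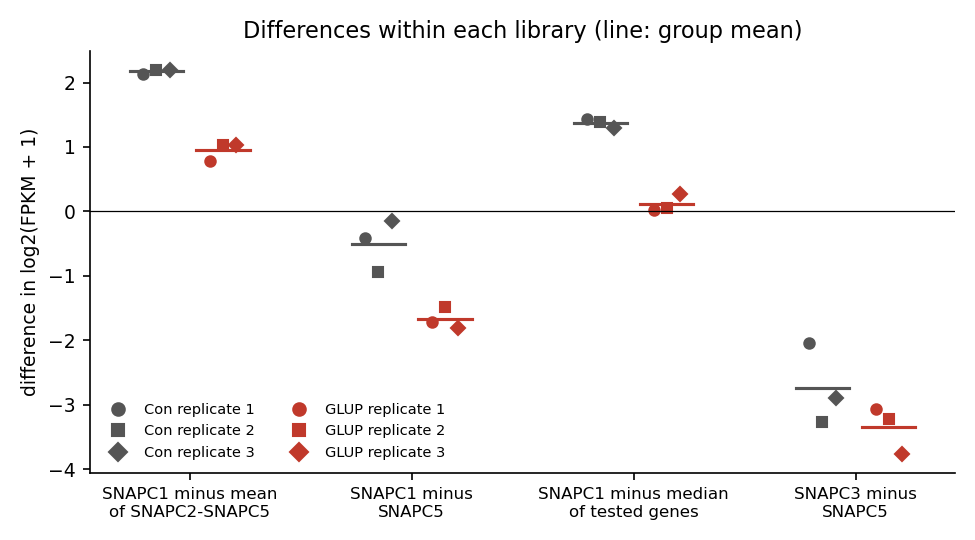
Differences between genes of 1 library on log2(FPKM + 1), for SNAPC1 against the mean of the other 4 subunits, against SNAPC5 and against the median of the tested genes, and for SNAPC3 against SNAPC5, with a point for each library (Con grey, GLUP red) and a line at each group mean. SNAPC1 minus the mean of the other 4 subunits lies at 2.13 to 2.20 in Con and 0.78 to 1.04 in GLUP, and SNAPC3 minus SNAPC5 overlaps.

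Of the TFIIIB genes, TBP had the highest mean FPKM over the 6 libraries, although BRF2 was above it in GLUP 1 and GLUP 2. TBP, which serves all nuclear RNA polymerases, had 6.34, 3.95 and 3.88 FPKM in Con 1, 2 and 3 and 1.90, 2.42 and 5.56 FPKM in GLUP 1, 2 and 3. GLUP 1 and GLUP 2 were below all Con libraries, and GLUP 3 was above Con 2 and Con 3. The difference was -0.48 on log2(FPKM + 1) (SE 0.35, 95% interval -1.27 to 0.31, limma adjusted p = 0.397), and it was -0.84 without GLUP 3 (adjusted p = 0.384), -0.25 without GLUP 1 (adjusted p = 0.768), -0.29 without Con 1 (adjusted p = 0.670) and -0.24 after the trimmed-mean rescaling (adjusted p = 0.675).

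BRF2 and BDP1 each turned on Con 2. BRF2, which joins TFIIIB at U6-type promoters, had 3.26, 0 and 1.52 FPKM in Con 1, 2 and 3 and 1.98, 3.27 and 2.59 FPKM in GLUP 1, 2 and 3. It was listed at 0 in Con 2 alone, and the difference of 0.70 (SE 0.45, 95% interval -0.32 to 1.71, limma adjusted p = 0.347) became 0.13 without that library and 1.17 without Con 1 (limma adjusted p = 0.830 and 0.376). BRF2 shares 1629 exonic bases with ADGRA2 on the opposite strand (mean 0.537 FPKM), so its values are uncertain. BDP1, which like TBP is common to both forms of TFIIIB, had 0.908, 3.34 and 0.662 FPKM in Con and 1.05, 0.706 and 0.668 FPKM in GLUP. Con 2 was the 1 high library, and the difference of -0.41 (SE 0.34, 95% interval -1.18 to 0.35, limma adjusted p = 0.448) became 0.02 without it and -0.68 without Con 3 (limma adjusted p = 0.977 and 0.186).

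BRF1 and POU2F1 stayed below 1 FPKM in every library. BRF1 had 0.258, 0.0207 and 0.395 FPKM in Con and 0.355, 0.289 and 0.213 FPKM in GLUP, a difference of 0.08 on log2(FPKM + 1) (limma adjusted p = 0.781). POU2F1 had 0.447, 0.277 and 0.446 FPKM in Con and 0.349, 0.698 and 0.464 FPKM in GLUP, a difference of 0.11 (limma adjusted p = 0.694). The groups of both overlapped. BRF1 shares 417 exonic bases with PACS2 on the opposite strand (mean 1.43 FPKM), so its low values are uncertain.

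Per length, the 10 genes spanned a wide range. By mean FPKM over the 6 libraries, SNAPC5 ranked 1674 and SNAPC1 2467 in the whole table, followed by TBP at 3701, BRF2 at 5207, SNAPC3 at 6508, BDP1 at 6775, POU2F1 at 10182, SNAPC2 at 11841, BRF1 at 12246 and SNAPC4 at 12653. The ranges of neighbours in this order overlapped over the libraries, and by the GLUP means alone SNAPC3 (0.482 FPKM) came after BDP1 (0.809 FPKM) and POU2F1 (0.504 FPKM). SNAPC1 was below SNAPC5 in all 6 libraries.

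The factors around SNAPc were taken as 5 lists with 53 genes: RNA polymerase III subunits, TFIIIA with TFIIIC, regulators and relatives, the little elongation complex that works at snRNA genes, and Integrator, which cuts the 3′ ends of snRNAs. Of these, 52 were above 0 in some library and 38 passed the minimum level. None passed an adjusted p of 0.05 (limma, adjusted p from 0.194 to 0.964), and at an unadjusted p under 0.05 there were 11 lower and 1 higher of the 38, beside 21.7% of all tested genes. The median fold change of the 52 was -0.26 with 37 lower, beside -0.23 and 65.5% over the tested genes and -0.0090 and 55.0% over all genes above 0. Groups did not overlap in 14 of the 38, with 13 lower and 1 higher, beside 30.3% of all tested genes, 22.7% lower and 7.55% higher. Without Con 3, 10 of the 38 passed the adjusted threshold and 9 of them were lower, beside 18.5% of all tested genes, and with no minimum in the same libraries 0 passed.

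Among the polymerase III subunits, 17 of 18 were tested, 14 of 18 were lower and the median was -0.27. POLR2K and POLR2L, small subunits shared by the nuclear RNA polymerases, went opposite ways. POLR2K had 115, 190 and 44.6 FPKM in Con 1, 2 and 3 and 32.8, 34.7 and 33.5 FPKM in GLUP, a difference of -1.53 on log2(FPKM + 1). POLR2L had 501, 244 and 761 FPKM in Con and 880, 1118 and 1632 FPKM in GLUP, a difference of 1.37. In POLR2K all GLUP libraries were below Con, and in POLR2L all were above. POLR1C, shared by polymerases I and III, was at -0.72 with no overlap. These genes were named for their lack of overlap. Of the 17 tested subunits, GLUP was lower without overlap in 7 and higher in 1, beside 22.7% and 7.55% of all tested genes.

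TFIIIC recognises the internal promoters of transfer RNA genes and TFIIIA those of ribosomal RNA genes read by polymerase III, and 5 of their 7 genes were tested, with a median of -0.24 over the 7. GTF3C6, a TFIIIC subunit, had 346, 548 and 217 FPKM in Con and 167, 170 and 158 FPKM in GLUP, a difference of -1.06. GTF3C3, another TFIIIC subunit, had 2.74, 2.59 and 1.80 FPKM in Con and 0.988, 0.715 and 1.19 FPKM in GLUP, a difference of -0.78. GTF3A, which encodes TFIIIA, was at -0.89. These 3 of the 5 tested genes were named because their groups did not overlap. GLUP was the lower group in each, as in 22.7% of all tested genes.

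In the remaining lists, 3 genes over the minimum had every GLUP library below every Con library, as had 22.7% of all tested genes. They were named for it, and INTS6 and ELL2 showed the same below the minimum. SSB, the La protein that binds the 3′ ends of polymerase III transcripts, had 119, 136 and 75.8 FPKM in Con and 65.2, 61.6 and 68.6 FPKM in GLUP, a difference of -0.71. EAF1, a partner of the elongation factor ELL, had 12.9, 41.1 and 6.11 FPKM in Con and 3.54, 3.45 and 1.68 FPKM in GLUP, a difference of -2.09 (SE 0.56) that was lower than that of SNAPC1. INTS12, an Integrator subunit, had 10.6, 14.5 and 9.60 FPKM in Con and 6.73, 4.84 and 5.99 FPKM in GLUP, a difference of -0.86. The medians were -0.49 for the regulators, -0.24 for the little elongation complex and -0.11 for Integrator.

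**Figure D4:**
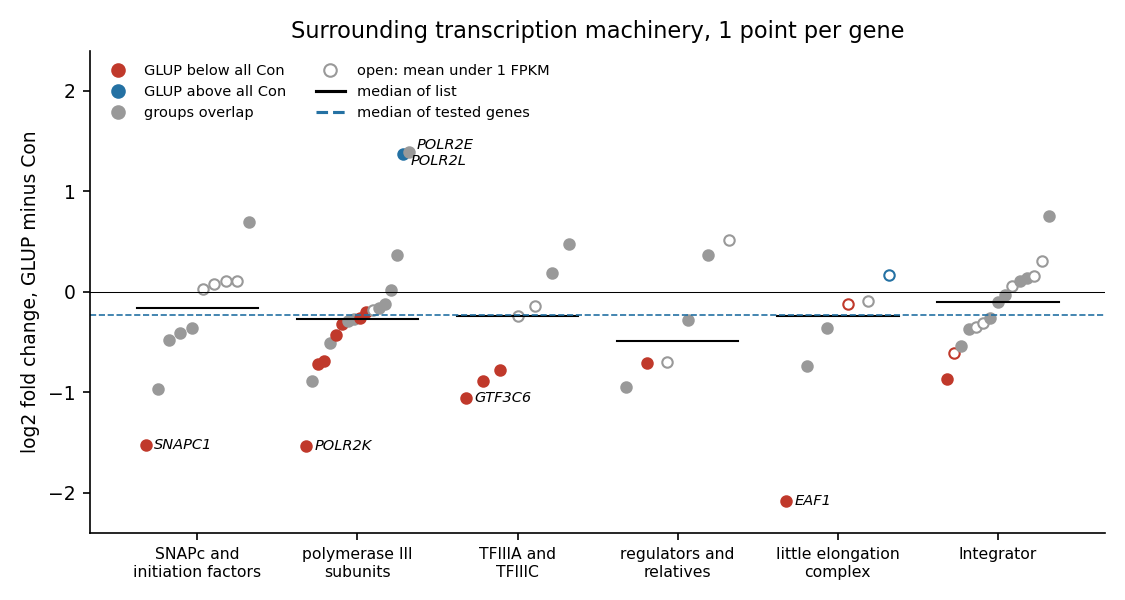
Log2 fold change (GLUP minus Con on log2(FPKM + 1)) of the 10 factor genes and of the 52 surrounding genes above 0, in 5 lists, 1 point for each gene, coloured by whether the groups overlap and open where the mean is under 1 FPKM, with black lines at list medians and a dashed line at the median of all tested genes. Of the 52 points, 37 lie below 0, with EAF1 at -2.09 and POLR2K at -1.53 at the low end and POLR2E at 1.39, whose groups overlap, beside POLR2L at 1.37 at the high end.

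The RNAs that SNAPc promoters make could hardly be read from the rows that were matched. Of 24 listed snRNA and related genes, 18 matched a single row, and 12 of those were above 0 in at most 2 libraries. By symbol, 5 matched no row and 1 matched several. RN7SK, RPPH1, RMRP, RNU2-1, RNU11 and RNU12 were therefore not read, and nothing is said of their levels. RNU6-8, a U6 gene, was the highest with 3.72, 7.63 and 1.26 FPKM in Con and 1.75, 4.13 and 4.36 FPKM in GLUP, and the groups overlapped. RNY1, a Y RNA gene, had 0.371, 4.41 and 0.361 FPKM in Con and 0.683, 0.334 and 0.678 FPKM in GLUP, with 1 high library. The RNAs that were read are short and have near-identical copies, so each value is uncertain and no statement about snRNA output can be made from them.

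Base composition moved with the fold changes, and its part in the fall of SNAPC1 was not tested beyond the values given here. Across 7279 tested genes with a known composition, the Spearman correlation of fold change with the GC content of the transcript was 0.56, a description across genes, which are not independent. The SNAPC1 transcript has 36.9% GC, in the lowest of 10 equal bins of genes (28.1% to 38.2%), where the median fold change was -0.62 and 94.1% of 728 genes were lower. Within that bin, 26 of 728 genes were at or below SNAPC1. SNAPC2, SNAPC4 and BRF1, whose differences were 0.11 or less, have GC contents in the highest bin, where the median was 0.30 and 28.0% of genes were lower. POU2F1, also at 0.11, has 41.8% GC, in a bin (40.4% to 42.6%) where the median was -0.46. All of these genes averaged under 1 FPKM, where the added 1 FPKM shrinks a difference, while the bins hold only genes over that level.

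With a trend in GC content and length removed from each library, SNAPC1 was at -0.89 and ranked 259, and its distance from the other 4 subunits went from -1.23 to -0.65. Its values on this scale were 3.53, 3.12 and 3.70 in Con and 2.50, 2.53 and 2.64 in GLUP, still with no overlap. On the same scale SNAPC3 was at -0.51 (limma adjusted p = 0.361), and SNAPC2, SNAPC4, SNAPC5, BRF1 and BDP1 turned direction, none with an adjusted p under 0.05. The trend was fitted on genes averaging 1 FPKM or more and was also taken from factor genes below that level. There SNAPC2 in Con 2, at 0.0357 FPKM, came to 0.911, and POU2F1 in Con 2 to -0.235, which log2(FPKM + 1) cannot reach. The turns of SNAPC2, SNAPC4 and BRF1, and the distance of -0.65 that includes SNAPC2 and SNAPC4, are therefore uncertain. The shares of all tested genes whose groups did not overlap were 28.2% after this removal and 28.7% with the trimmed-mean rescaling, and in both SNAPC1 was the 1 factor gene of 10, which its selection by this comparison favours.

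**Figure D5:**
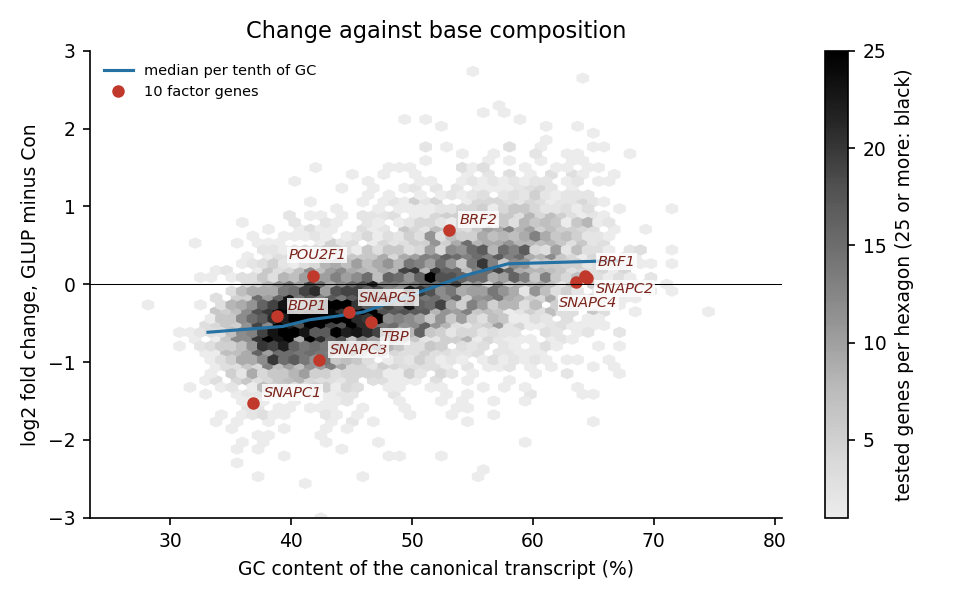
Log2 fold change (GLUP minus Con on log2(FPKM + 1)) against the GC content of the transcript in percent, with 7279 tested genes as shaded hexagons, the median of each of 10 GC bins as a line and the 10 factor genes as red points (1 tested gene lies beyond 3 on the fold change axis). The median runs from -0.62 in the lowest bin to 0.30 in the highest, and SNAPC1 lies at -1.52 with 36.9% GC.

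The libraries themselves differed, which touches each value above. Con 3 stood nearer to GLUP than Con 1 and Con 2 did: over the 504 genes with a log2 fold change of -1 or less, it had gone a median of 30.9% of the way from the GLUP mean to the mean of Con 1 and Con 2. For SNAPC1 this share was 75.3%, reached or passed in 37 of the 504 genes, and for SNAPC3 it was 14.0%. The deviation of a library from the mean of all 6 followed GC content in Con 1 and Con 2 with Spearman correlations of -0.343 and -0.601, against 0.458 in Con 3 and 0.340 to 0.544 in GLUP. Con 2 was the least like the others, with a mean correlation of 0.898 where the other 5 had 0.954 to 0.964. The FPKM of a library summed to 909735 to 965147 and 20061 to 21498 genes were above 0, but the number of fragments sequenced is unknown, so no counting interval can be given. Of the epithelial markers looked up for this gastric line, which the study cites as undifferentiated, EPCAM did not pass 0.124 FPKM and CDH1 0.0799 FPKM. KRT8 was at 1.05 to 1.88 FPKM in Con and 2.19 to 2.30 FPKM in GLUP. KRT18 was at 0.917 to 1.00 FPKM in Con and 1.64 to 2.51 FPKM in GLUP. Both keratins were thus higher in every GLUP library, as were 7.55% of all tested genes. CDH1 went the other way, at 0.0148 to 0.0799 FPKM in Con and 0 in every GLUP library, and the groups of EPCAM overlapped. The part of these markers in the results was not tested. Mesenchymal VIM was at 222 to 387 FPKM over the 6 libraries, mesenchymal CDH2 at most 0.0508, the blood marker PTPRC at most 0.0394 and the red cell marker HBB at 0.

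The genes whose levels ran most like SNAPC1 over the 6 libraries were ASPH (Pearson r = 0.993), PDHB (0.993), XNDC1N (0.992), CLPTM1L (0.990) and SLC7A11 (0.990) on log2(FPKM + 1). All 5 were lower in GLUP, from -0.65 (XNDC1N) to -2.35 (CLPTM1L), and 522 tested genes had an r of at least 0.9 with SNAPC1. The 6 points share the difference between the groups, so these values are a description. PDHB encodes a subunit of pyruvate dehydrogenase and SLC7A11 the cystine transporter. Among the factor genes the highest r was that of SNAPC3 at 0.81, followed by TBP at 0.62, SNAPC5 at 0.58 and BDP1 at 0.46, where the median over all tested genes was 0.46.

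Within 200 kb of SNAPC1, HIF1A, the oxygen-regulated subunit of hypoxia-inducible factor, was the 1 gene above 1 FPKM. HIF1A had 7.05, 6.36 and 4.51 FPKM in Con and 3.88, 3.01 and 3.30 FPKM in GLUP. Its groups did not overlap, and the difference was -0.65 (SE 0.27, limma adjusted p = 0.211), which is a smaller fold change than that of SNAPC1. LINC01303, HIF1A-AS1, HIF1A-AS3, SYT16 and the unnamed gene ENSG00000279633 were also above 0 there, none with a group mean over 0.263 FPKM. The 1 gene that shares exonic bases with SNAPC1, on the same strand, was at 0 in all libraries.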

How the data were processed

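RNA sequencing was done on total RNA of HGC-27 cells, and the authors deposited FPKM values, already normalised to transcript length and mapped fragments, for 62492 rows in 6 libraries. The submitters' processing notes name HISAT2, Cufflinks, RSEM and GRCh38.p10 with no roles, whereas the gene identifiers belong to a GENCODE annotation lifted to GRCh37, from which gene coordinates and GC contents were taken. The 49 pseudoautosomal copies on chromosome Y, all at 0, were left out. Groups and replicate numbers came from the titles. The 10 genes and all lists were chosen with earlier results of these data known.

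FPKM is no count, and only 3.08% to 4.83% of low values fell on steps of single fragments, so fragments were not recovered and limma 3.58.1 (R 4.3.3) was run on log2(FPKM + 1) with a trended variance, two-sided, for the 7406 genes averaging 1 FPKM or more. Genes under that level were read from a fit of every gene above 0. A threshold of 0.05 was set on Benjamini-Hochberg adjusted p-values over all tested genes, and the procedure was tested on simulated data. With 3 against 3 libraries an exact permutation test cannot go below p = 0.10, so none was used. Named beyond the 10 genes were, in each list, up to 3 tested genes without overlap between groups and with the largest absolute fold changes, the 5 genes correlated best with SNAPC1, and genes above 0 within 200 kb of it. Of the markers, PECAM1 was not analysed here. Alternatives were another pseudocount, other minimum levels, 3 rescalings, removal of a trend in GC content and length (loess, span 0.5), a replicate block, an untrended variance and leaving out each library. No library shared its values with another.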

Additional observations from a re-analysis of the deposited data

How the results depend on the processing

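SNAPC1 stayed lower in GLUP under each alternative run, and so did its distance from the other 4 subunits. On the log2 scale, SNAPC1 and that distance were -1.73 and -1.34 with a pseudocount of 0.1, -1.26 and -1.10 after the trimmed mean of log ratios, -1.27 and -1.11 after the upper quartile, and -0.89 and -0.65 with the GC content and length trend removed, with the cause not tested. Centring on the median gave -1.26 for SNAPC1 and 0.29 for the median of the other 9 genes. With the trend removed, that median was -0.19, SNAPC2 -0.29, SNAPC4 -0.20, SNAPC5 0.01 (0.0095), BRF1 -0.22 and BDP1 0.10, and the replicate block with the trend removed gave these same values. Of these, SNAPC2, SNAPC4 and BRF1 lay below the 1 FPKM over which the trend was fitted, so their values are uncertain. Genes called in the whole table numbered 0 as reported, 2 with the trend removed, 1 with the replicate block, 1 with both, 1 without the variance trend and 0 to 1367 when a library was left out (1367 without Con 3 and 3 without Con 2). Leaving out a library gave -1.66 to -1.42 for SNAPC1, -1.27 to -1.14 for its distance, -0.017 to 0.048 for the median of the other 9, 0 to 10 calls in the surrounding lists, -0.017 to 0.20 for SNAPC2, -0.0071 to 0.053 for SNAPC4, -0.045 to 0.18 for BRF1 and -0.68 to 0.016 for BDP1. TBP ranged from -0.84 to -0.25, SNAPC5 from -0.67 to -0.11 and BRF2 from 0.13 to 1.17. SNAPC3 passed the threshold without Con 3 alone (-1.36). An alternative chosen after seeing the data, without Con 3 and with no minimum, called 0 genes in the table (4962 at an unadjusted p under 0.05) and lost that call.

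Same-numbered libraries had correlations of their deviations of 0.13, -0.01 and -0.17. No pairing by number was seen in them, but so few values cannot exclude one. The replicate block changed no call among the 10 genes. Unknown depth limits the genes below 1 FPKM most.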
